A study of Homo sapiens with 6 samples.

Results

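The genes described here were 34 contractile and actin cytoskeleton genes, chosen by name as rows of the deposited count table, which listed 60663 genes. They comprised 6 actins, 6 cross-linkers and anchors of actin filaments, 12 proteins that bind or regulate thin filaments, 6 components of the myosin II motor and its activating kinase, and 4 transcriptional regulators of contractile genes. No measured value was used to choose them, although the choice was made with earlier results of these data known.

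CCD18Co is an established line of human colon fibroblasts. Cells growing in medium with fetal bovine serum were transfected for 6 h, using lipofectamine, with siRNAs against *LTBP2* (siLTBP2) or with a non-target control (siNT), and total RNA was sequenced 48 h after transfection. There were 3 libraries of each group, numbered 1 to 3, and the comparison was used as a test of myofibroblast state. All 6 libraries came from 1 cell line, all cells were transfected, both siRNA reagents were pools and no untransfected culture was included, so the values do not say how the siNT cells differed from resting fibroblasts. Nothing in the labels or methods states that the replicates were separate cultures, and the p-values then measure only the spread between these libraries, which may be technical.

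In a contracting fibroblast, bundles of actin filaments cross-linked by alpha-actinin are pulled together by non-muscle myosin II, which is switched on when its regulatory light chain is phosphorylated, for example by myosin light chain kinase. A myofibroblast is a fibroblast with strongly developed bundles of this kind, and alpha smooth muscle actin (*ACTA2*) and transgelin (*TAGLN*) are its usual markers. Many contractile genes are switched on by serum response factor (SRF), which binds a DNA element called the CArG box together with a coactivator, either myocardin or one of the myocardin-related factors MRTFA and MRTFB, which respond to the pool of free actin.

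Each library held between 44663424 and 53576899 reads assigned to genes, of which the 34 genes took between 2.76% and 3.07%. *LTBP2* stood between 21.2 and 25.0 CPM (counts scaled to library size, with TMM normalization) in the siNT libraries and between 6.00 and 8.61 CPM in the siLTBP2 libraries, with a log2 fold change of -1.72 (SE 0.15). All 9 fibroblast markers had a mean of at least 1 CPM, summing to 9933 to 13204 CPM in siNT and 10067 to 14406 CPM in siLTBP2. These sums overlapped, but single markers moved apart. *PDGFRB* (158 to 178 against 94.9 to 119 CPM) and *THY1* (861 to 1023 against 738 to 857 CPM) were lower in siLTBP2. *VIM* was higher (4524 to 5241 against 5394 to 6420 CPM), and the other fibroblast markers overlapped. Such a separation was seen in 37.0% of all genes. Of 8 visceral smooth muscle markers, 3 had a mean of at least 1 CPM (*SYNM*, *SYNPO2* and *HSPB6*), while desmin, *KCNMB1*, *PLN*, *CASQ2* and *PCP4* were at or close to 0. The summed level of the 8 was 32.7 to 46.8 CPM in siNT and 22.6 to 33.5 CPM in siLTBP2. *SYNM* (10.7 to 12.2 against 4.72 to 5.33 CPM) and *SYNPO2* (8.12 to 15.2 against 4.84 to 6.29 CPM) were lower in siLTBP2 without overlap, and *HSPB6* overlapped. None of 7 striated muscle markers, none of 4 leukocyte markers and 1 of 4 endothelial markers (*VWF*) had a mean of 1 CPM or more. The summed markers of 3 further cell types did not overlap between the groups. The 6 pericyte markers summed to 125 to 166 CPM in siNT and 207 to 264 CPM in siLTBP2, from 3 genes above 1 CPM (*CSPG4*, *MCAM* and *RGS5*). The 6 epithelial markers summed to 40.2 to 52.6 and 85.6 to 99.3 CPM, from *KRT8* and *KRT18*, with *EPCAM*, *CDH1* and *KRT20* at or close to 0. The 4 endothelial markers, mostly *VWF*, summed to 1.48 to 2.03 CPM in siNT and 0.797 to 1.37 CPM in siLTBP2. The part of these shifts in the results was not tested.

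After *LTBP2* silencing the contractile genes did not move as a block. *TAGLN*, smoothelin (*SMTN*), gamma smooth muscle actin (*ACTG2*), *TAGLN2*, *ACTN1*, *TPM4* and *TPM3* rose, whereas myocardin (*MYOCD*), myosin light chain kinase (*MYLK*), leiomodin 1 (*LMOD1*), palladin (*PALLD*), *PDLIM7* and *CNN3* fell. *ACTA2* itself did not pass edgeR's quasi-likelihood test (adjusted p = 0.309), but did when the replicate number entered as a block (adjusted p = 0.0152). The largest changes were 2.23-fold up for *TAGLN* and a fall to 42.1% of the siNT level for *MYOCD*. In RNA from whole cultures, fewer cells of a kind and less RNA per cell cannot be told apart.

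Of the 34 genes, 31 had enough counts to be tested, and 13 were called at an adjusted p below 0.05 by edgeR's quasi-likelihood test. These were 41.9% of the tested members, against 19.3% of all 16920 genes tested. The calls divided into 7 higher and 6 lower, where 9.76% and 9.51% of all genes were called in these directions. Abundant genes were called more often: of genes with at least 100 CPM, 27.5% were called, and of the 24 members at that level 10 were. At the stricter limits used in the study (a change of more than 2-fold with an adjusted p below 0.01), 2 members passed, *TAGLN* and *MYOCD*, beside 2.57% of all genes. The groups did not overlap in 19 of the tested members (siLTBP2 above siNT in 11 and below it in 8), a separation seen in 37.0% of all genes. The median log2 fold change of the 31 members was 0.06, and that of all genes was -0.01.

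How many members were called depended on single libraries and on the numbering. Without siNT replicate 3 or siLTBP2 replicate 2 the number called higher fell from 7 to 4 and 3, and without siLTBP2 replicate 1 the number called lower fell from 6 to 3. The stricter limits of the study were passed by 1 member in place of 2 without siNT replicate 1 or 2 or siLTBP2 replicate 1 or 3. *TAGLN*, *SMTN*, *ACTG2*, *PALLD*, *MYLK* and *MYOCD* stayed called whichever single library was left out. On the scale of log2(CPM + 1), libraries with the same number deviated together. On edgeR's log2 CPM the libraries numbered 2 did not, with a correlation of 0.08 against 0.10 for siNT replicate 2 with siLTBP2 replicate 1. When the replicate number entered the fit as a block, 20 members were called, 12 higher and 8 lower. The block raised the share of all genes called to 36.2%. The additional calls were *ACTA2*, *ACTN4*, *MYH9*, *MYL6* and *MRTFB* (higher) and *MYL9* and *MRTFA* (lower). Replicate 3 was the lowest library of both groups for 8 members, among them *ACTA2*, *MYOCD*, *MYLK* and *LMOD1*.

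**Figure D1:**
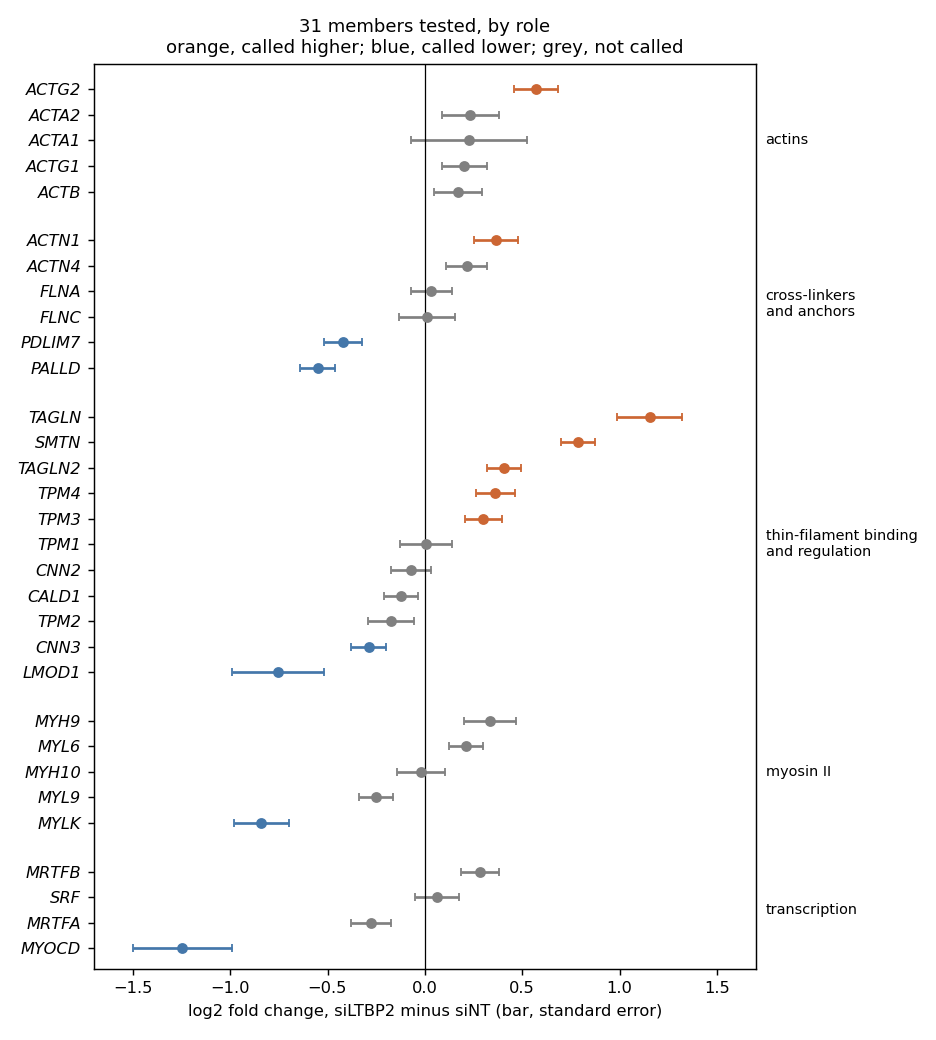
The log2 fold change (siLTBP2 minus siNT, horizontal axis) of the 31 tested members, 1 row per gene, sorted within 5 role groups, with bars of 1 standard error; orange marks genes called higher, blue genes called lower and grey genes not called. Most role groups hold genes on both sides of 0, and the extremes are *TAGLN* at 1.16 and *MYOCD* at -1.25.

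Because many of these genes are SRF targets, the DNA around their start sites is described here, with the changes in level already known. RefSeq promoter windows (GRCh38.p14, 250 bases before to 50 bases after an annotated start, 300 in all) were at hand for 29 of the 34 genes, often several per gene. *ACTB*, *TAGLN*, *MYH11*, *MYL9* and *MYOCD* had no entry. A CArG box was searched for as 10 bases, CC, then 6 bases that are each A or T, then GG, a pattern that is matched on both strands at once because it reads as its own reverse complement. The windows of *ACTA2*, of the 2 smooth-muscle-type genes that rose and carry a box (*ACTG2* and *SMTN*), and of *MYLK*, which fell and carries one, are shown 5′ to 3′ on the gene's own strand, with the boxes in capitals. *ACTA2* has no exact box, and its capitals mark 2 boxes in which 1 of the inner 6 bases is C or G.
ACTA2, chr10:88952724-88953023, minus strand: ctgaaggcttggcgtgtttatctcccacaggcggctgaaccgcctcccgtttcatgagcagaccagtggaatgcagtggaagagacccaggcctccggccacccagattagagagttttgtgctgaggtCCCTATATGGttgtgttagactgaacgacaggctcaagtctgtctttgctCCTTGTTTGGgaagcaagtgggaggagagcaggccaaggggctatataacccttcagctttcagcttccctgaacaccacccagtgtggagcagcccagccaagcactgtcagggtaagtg
ACTG2, chr2:73892758-73893057, plus strand: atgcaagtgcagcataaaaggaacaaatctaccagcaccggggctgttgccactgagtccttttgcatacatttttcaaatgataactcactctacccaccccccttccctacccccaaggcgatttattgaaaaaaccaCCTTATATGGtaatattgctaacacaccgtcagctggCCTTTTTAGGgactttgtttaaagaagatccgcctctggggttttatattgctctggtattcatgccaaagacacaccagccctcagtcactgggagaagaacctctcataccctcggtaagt
SMTN, chr22:31084746-31085045, plus strand: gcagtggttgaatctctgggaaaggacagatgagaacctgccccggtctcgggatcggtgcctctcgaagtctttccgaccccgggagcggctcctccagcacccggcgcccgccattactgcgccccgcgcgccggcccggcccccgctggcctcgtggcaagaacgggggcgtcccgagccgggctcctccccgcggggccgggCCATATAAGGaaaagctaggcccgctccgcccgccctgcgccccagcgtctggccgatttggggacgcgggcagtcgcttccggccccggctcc
MYLK, chr3:123620499-123620798, minus strand: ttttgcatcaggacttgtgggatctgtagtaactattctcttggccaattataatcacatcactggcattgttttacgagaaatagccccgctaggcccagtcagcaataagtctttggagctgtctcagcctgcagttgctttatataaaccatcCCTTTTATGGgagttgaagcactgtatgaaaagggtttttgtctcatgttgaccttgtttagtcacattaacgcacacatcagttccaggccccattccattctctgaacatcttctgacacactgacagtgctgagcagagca

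The boxes of *ACTG2* began 110 and 73 bases before the start site, that of *SMTN* 44 bases before it and that of *MYLK* 94 bases before it. The imperfect boxes of *ACTA2* began 121 and 71 bases before the start. Of these starts, that of *ACTA2* lay 38566 bases, that of *SMTN* 20891 bases and that of *MYLK* 263784 bases downstream of the annotated 5′ end of the gene, and counts per gene do not separate transcripts that begin there from longer ones. An exact box lay in at least 1 window of 10 of the 27 tested members with a window (37.0%), against 1.58% of 10857 tested genes with a window. Counted per window, 19.3% of the 57 members' windows and 1.29% of all 35116 windows held one. With 1 departure allowed, the shares of genes were 48.1% and 9.82%.

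Members with a box moved in both directions. Of the 10 tested members with an exact box, 4 rose (*ACTG2*, *SMTN*, *ACTN1* and *TPM4*), 1 fell (*MYLK*) and 5 were not called (*ACTA1*, *ACTG1*, *CNN2*, *FLNA* and *SRF*). Their median log2 fold change was 0.21. The start in the only window of *MYLK* lay 263784 bases downstream of the gene's 5′ end. The fall of *MYLK* therefore cannot be assigned to transcripts that begin there, and the same holds for the rise of *SMTN*. Of the 17 tested members whose windows held no exact box, 2 rose, 4 fell and 11 were not called, with a median of 0.01. Of all genes tested, 9.76% were called higher and 9.51% lower. Calls among all genes with a box were not counted. A match to these letters is a description of the sequence and not a binding site, and the difference between the medians was not tested.

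Actins form the filament itself. Per base of exon, the cytoplasmic actins were by far the most abundant members, with 8611 ± 1065 TPM (counts scaled by exon length and library size; mean ± SD, n = 3) for *ACTB* and 2777 ± 223 TPM for *ACTG1* in siNT. The smooth muscle actins stood lower, at 43.4 ± 7.67 TPM for *ACTA2* and 41.0 ± 1.76 TPM for *ACTG2*. On this scale the 2 levels did not differ beyond their spread, and *TAGLN*, at 48.7 ± 3.93 TPM, was within the spread of *ACTA2*. These comparisons depend on the merged exon length, 5628 bases for *ACTA2*, 3811 for *ACTG2* and 6550 for *TAGLN*. In CPM, *ACTA2* (54.7 to 73.6) lay above *ACTG2* (39.9 to 41.8) and below *TAGLN* (75.3 to 91.5) in the siNT libraries. Levels per transcript were not measured. Skeletal actin (*ACTA1*) was at 1.40 ± 0.44 TPM, and cardiac actin (*ACTC1*) had 5 counts or fewer in any library and was not tested.

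*ACTA2* (ENSG00000107796, minus strand of chromosome 10 from 88935074 to 88991339, 9 exons in the canonical transcript) is the defining transcript of the myofibroblast. Its level was 73.6, 64.2 and 54.7 CPM in siNT replicates 1 to 3 and 85.2, 82.2 and 59.0 CPM in siLTBP2. The groups overlapped, because siLTBP2 replicate 3 lay below 2 of the siNT libraries. Between libraries of the same number, siLTBP2 was the higher each time. The log2 fold change was 0.23 (SE 0.15), with an adjusted p of 0.309. With the replicate block the adjusted p was 0.0152. When single libraries were left out, the log2 fold change ranged from 0.13 to 0.39, and *ACTA2* was called without siLTBP2 replicate 3 (0.39, adjusted p = 0.0403) and not without any other library, siNT replicate 3 included (0.13, adjusted p = 0.614). *FAS* overlaps 387 exon bases and *ACTA2-AS1* 1638 exon bases of the gene on the opposite strand, and neither was called (log2 fold changes -0.12 and 0.28).

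*ACTG2* (ENSG00000163017, plus strand of chromosome 2 from 73892314 to 73919865) encodes the gamma actin of visceral smooth muscle. It measured 41.8, 39.9 and 41.8 CPM in siNT and 53.1, 58.6 and 71.8 CPM in siLTBP2, so that every siLTBP2 library lay above every siNT library. It rose by 0.57 on the log2 scale (SE 0.11, adjusted p = 0.00563), the only actin called. *ACTB* changed by 0.17 (adjusted p = 0.377), *ACTG1* by 0.20 (adjusted p = 0.265) and *ACTA1* by 0.23 (adjusted p = 0.656) on that scale. The actin genes are similar in their coding sequence, and *ACTB* and *ACTG1* have 11 and 21 processed pseudogenes with rows of their own, so some reads can be divided between copies. The pseudogene rows held 0.0589% and 0.0974% of the counts of their parents. Reads left out of the counting would appear in no row, so these shares do not say how many were lost.

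Cross-linkers hold filaments in bundles and anchor them at adhesions and dense bodies. Of the 6, *ACTN1* rose, *PALLD* and *PDLIM7* fell, and *ACTN4*, *FLNA* and *FLNC* were not called. Without siLTBP2 replicate 1 or 2, 1 of the 6 was called. *PALLD* encodes palladin, a scaffold along stress fibres that binds alpha-actinin, and it lies on the plus strand of chromosome 4 from 168497052 to 168928457. Its level was 583, 558 and 501 CPM in siNT and 374, 377 and 369 CPM in siLTBP2. The siLTBP2 libraries lay close together, and all were below the lowest siNT library. The fall was 0.55 on the log2 scale (log2 fold change -0.55, SE 0.09, adjusted p = 0.00227), to 68.3% of the siNT level.

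*PDLIM7* encodes Enigma, a PDZ and LIM domain protein of actin bundles. It measured 177, 181 and 194 CPM in siNT and 121, 139 and 152 CPM in siLTBP2, again without overlap. Its log2 fold change was -0.42 (SE 0.10, adjusted p = 0.0128), and the adjusted p rose to 0.0581 and 0.0516 without siLTBP2 replicate 1 or 2. *ACTN1*, the alpha-actinin of stress fibres, moved the other way, from 927, 729 and 843 CPM to 1093, 990 and 1139 CPM. The groups did not overlap, with siLTBP2 replicate 2 only a little above siNT replicate 1. Its log2 fold change of 0.37 (SE 0.11) carried an adjusted p of 0.0449, and this call was lost without any of 5 of the 6 libraries (adjusted p from 0.0788 to 0.111), being kept only without siNT replicate 1. Its paralog *ACTN4* had a log2 fold change of 0.21 (adjusted p = 0.181, and 0.0264 with the replicate block). The filamins, which join filaments at right angles, showed 0.03 for *FLNA* and 0.01 for *FLNC*, differences smaller than their standard errors.

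**Figure D2:**
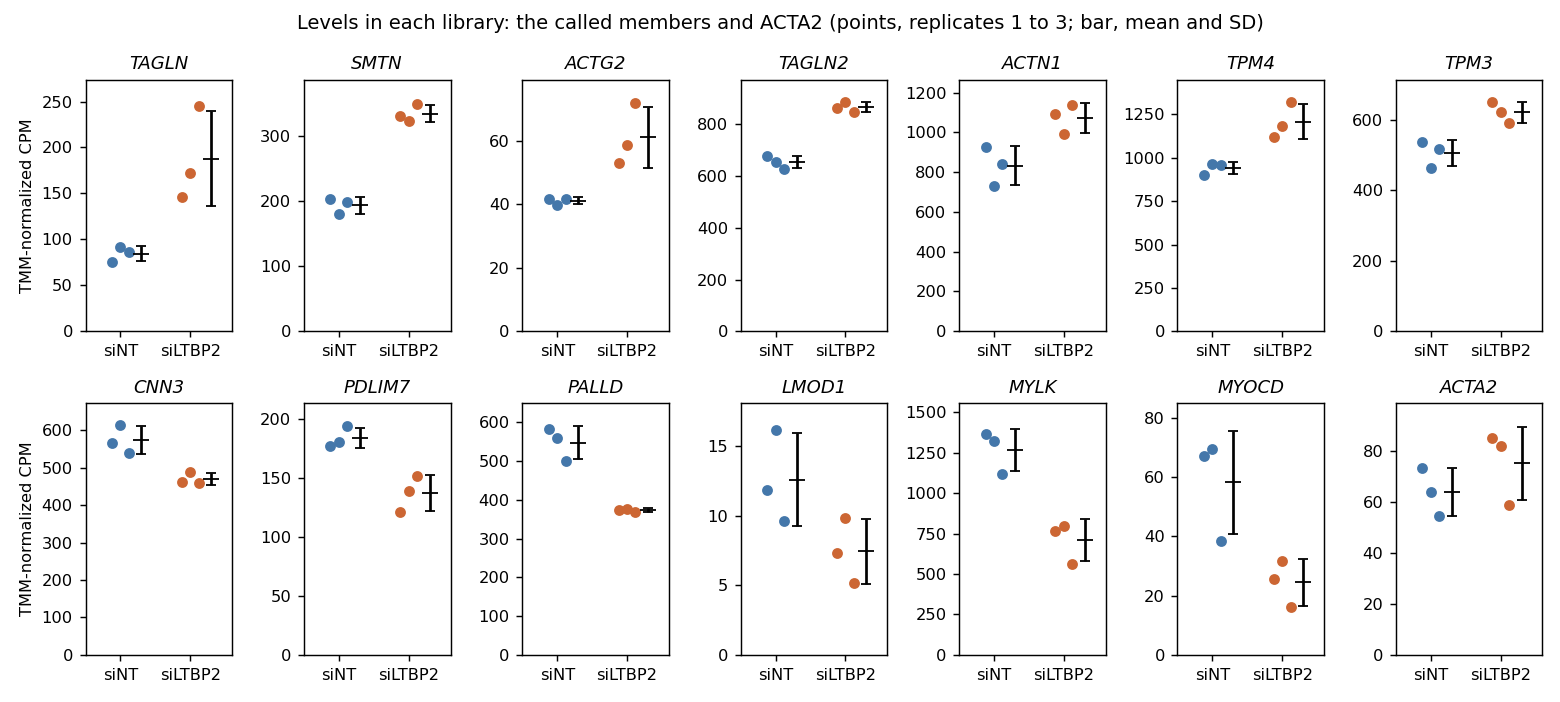
The TMM-normalized level (CPM, vertical axes from 0) of the 13 called members and of *ACTA2* in each library, with siNT in blue and siLTBP2 in orange; points are replicates 1 to 3 from left to right and the bar is the mean with its SD. The groups are apart in every panel but those of *LMOD1* and *ACTA2*, and siLTBP2 replicate 3 is the highest for *TAGLN* and *ACTG2* and the lowest for *MYOCD*, *MYLK* and *LMOD1*.

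Of the proteins that bind along the thin filament, 7 of 11 tested were called, with 5 higher and 2 lower. Leaving out any single library reduced these 7 calls to 3 or 4. *TAGLN* (ENSG00000149591, plus strand of chromosome 11 from 117199370 to 117207464) encodes transgelin or SM22-alpha, an actin-bundling protein and a myofibroblast marker. It measured 75.3, 91.5 and 86.0 CPM in siNT and 146, 172 and 245 CPM in siLTBP2. The groups were far apart, but the siLTBP2 libraries also spread widely, from 146 to 245 CPM. The log2 fold change was 1.16 (SE 0.17, adjusted p = 0.00104), and 0.92 without siLTBP2 replicate 3, where the change no longer reached 2-fold. *PCSK7* shares 2233 exon bases with *TAGLN* on the opposite strand, and its own log2 fold change was -0.05.

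*SMTN* (ENSG00000183963, plus strand of chromosome 22 from 31064105 to 31104757) encodes smoothelin, an actin-binding protein typical of contractile smooth muscle. Its level was 204, 180 and 199 CPM in siNT and 332, 323 and 350 CPM in siLTBP2. Both groups were tight, and the log2 fold change of 0.79 (SE 0.09) gave the lowest adjusted p of any member, 0.00024. *TAGLN2*, a transgelin found in many cell types, measured 678, 655 and 629 CPM in siNT and 864, 888 and 849 CPM in siLTBP2. Its log2 fold change was 0.41 (SE 0.09, adjusted p = 0.00961), or 0.0566 as adjusted p without siLTBP2 replicate 2.

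Tropomyosins wind along the filament and set which motors and severing proteins can reach it. *TPM4*, a cytoskeletal tropomyosin, went from 902, 962 and 958 CPM to 1120, 1186 and 1322 CPM. Its log2 fold change was 0.36 (SE 0.10, adjusted p = 0.029), and the call was lost without siNT replicate 1 or 3 or siLTBP2 replicate 2 or 3 (adjusted p from 0.0752 to 0.0953). *TPM3* went from 537, 465 and 517 CPM to 652, 623 and 593 CPM. With a log2 fold change of 0.30 (SE 0.09) it was at the edge of the threshold (adjusted p = 0.0497), and its call was lost without any single library (adjusted p from 0.054 to 0.16). *TPM1* and *TPM2*, which include the smooth muscle forms, had log2 fold changes of 0.01 and -0.18, with adjusted p of 0.978 and 0.347.

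Calponins and caldesmon restrain the actin-activated motor. *CNN3*, the acidic calponin, measured 567, 614 and 540 CPM in siNT and 462, 488 and 458 CPM in siLTBP2. The groups did not overlap, and the log2 fold change was -0.29 (SE 0.09, adjusted p = 0.0482), a call lost without any single library (adjusted p from 0.0738 to 0.143). *CNN2* and *CALD1* were not called, at -0.07 and -0.12. *CNN1*, the calponin of differentiated smooth muscle, had 5 counts or fewer in each library and was not tested. *LMOD1* encodes leiomodin 1, which nucleates filaments in smooth muscle, and its level was 11.9, 16.2 and 9.64 CPM in siNT and 7.34, 9.88 and 5.20 CPM in siLTBP2. Its groups overlapped, since siLTBP2 replicate 2 lay above siNT replicate 3. The log2 fold change was -0.75 (SE 0.24, adjusted p = 0.0485), and the call was lost without siNT replicate 1 or 2 or siLTBP2 replicate 1 or 3 (adjusted p from 0.0803 to 0.195).

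Among the motor genes, the kinase fell while the heavy and light chains were not called. *MYLK* (ENSG00000065534, minus strand of chromosome 3 from 123610049 to 123884332) encodes myosin light chain kinase, which phosphorylates the regulatory light chain. It measured 1364, 1322 and 1122 CPM in siNT and 768, 799 and 561 CPM in siLTBP2, so each siLTBP2 library was far below the lowest siNT library. Its log2 fold change was -0.84 (SE 0.14, adjusted p = 0.00253), to 55.9% of the siNT level. *MYLK-AS1* overlaps 612 exon bases on the opposite strand at 1.54 CPM in siNT.

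*MYH9*, the heavy chain of non-muscle myosin IIA, was at 1787, 1393 and 1470 CPM in siNT and 2260, 1816 and 1789 CPM in siLTBP2. The libraries did not overlap, but the spread was wide and the adjusted p was 0.108 at a log2 fold change of 0.33 (SE 0.13). With the replicate block it was 0.00097. *MYH10*, the heavy chain of myosin IIB, had a log2 fold change of -0.02, and *MYH11*, the smooth muscle heavy chain, had at most 5 counts in a library. The essential light chain *MYL6* was at 0.21 (adjusted p = 0.115) and the regulatory light chain *MYL9* at -0.25 (adjusted p = 0.0699), and these were 0.0261 and 0.00589 with the block. *MYL9* was also called without siLTBP2 replicate 3 (adjusted p = 0.0415).

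Of the 4 regulators, the coactivator myocardin fell, and SRF and the myocardin-related factors were not called. *MYOCD* (ENSG00000141052, plus strand of chromosome 17 from 12665890 to 12768949) is the coactivator characteristic of smooth and cardiac muscle. It measured 67.0, 69.4 and 38.3 CPM in siNT and 25.7, 31.8 and 16.1 CPM in siLTBP2. Replicate 3 was the lowest of its group in both, and the highest siLTBP2 library remained below the lowest siNT library. The log2 fold change was -1.25 (SE 0.25, adjusted p = 0.00686), and it ranged from -1.48 to -1.01 when single libraries were left out. The adjusted p then exceeded 0.01 in 3 fits, those without the first siNT library (0.023), the second siNT library (0.0434) and the first siLTBP2 library (0.012).

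*SRF* showed 0.06 on the log2 scale (SE 0.12, adjusted p = 0.758). The myocardin-related factors stood on opposite sides of 0, *MRTFA* at -0.28 (SE 0.10, adjusted p = 0.0836) and *MRTFB* at 0.28 (SE 0.10, adjusted p = 0.0643). With the replicate block their adjusted p was 0.0052 and 0.00269. *MRTFB* was also called without siLTBP2 replicate 3 (adjusted p = 0.0345). In siNT, *MYOCD* stood at 25.0 ± 7.88 TPM, within the spread of *MRTFA* at 27.6 ± 3.38 TPM, and above *MRTFB* at 12.7 ± 1.23 TPM. These ranks depend on the merged exon length, 8875 bases for *MYOCD*, 7326 for *MRTFA* and 16580 for *MRTFB*. In CPM, *MYOCD* (38.3 to 69.4) overlapped both *MRTFA* (48.0 to 58.7) and *MRTFB* (51.9 to 59.9) in siNT. In siLTBP2, *MYOCD* was at 10.3 ± 3.53, *MRTFA* at 22.3 ± 2.44 and *MRTFB* at 15.2 ± 1.79 TPM.

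The 18 tested members that were not called had log2 fold changes between -0.28 and 0.33, with standard errors from 0.09 to 0.30. None of them would reach a 2-fold change within 2 standard errors of its estimate.

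The balance between paralogs was then compared as a share of each family, in reads per base of exon. *ACTA2* made up 0.395%, 0.405% and 0.332% of actin transcripts in siNT and 0.445%, 0.432% and 0.301% in siLTBP2. The groups overlapped, and the mean share went from 0.377% to 0.393% (exact permutation test, two-sided, p = 0.7). *ACTG2* went from 0.331%, 0.372% and 0.374% to 0.409%, 0.455% and 0.541%, with no overlap (p = 0.1 by the exact permutation test, the smallest that 3 libraries against 3 allow). *ACTB* kept about 75% of the actin transcripts, with means of 75.0% and 74.5% (exact permutation p = 0.8).

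Among the transgelins, *TAGLN* took 3.69%, 4.60% and 4.51% in siNT and 5.51%, 6.26% and 9.08% in siLTBP2, *TAGLN2* holding the rest. Among the tropomyosins, the share of *TPM2* was 51.3%, 47.1% and 50.4% in siNT and 46.1%, 38.7% and 39.3% in siLTBP2. *TPM4* held 28.6%, 32.8% and 29.7% in siNT and 32.7%, 38.8% and 38.9% in siLTBP2, a small overlap. *TPM3* went from a mean of 13.3% to 15.5%, without overlap, and *TPM1* from 6.68% to 6.31%, with overlap. The order of the tropomyosins depends on the merged exon length, 3183 bases for *TPM2* against 12375 to 15130 for its paralogs. In CPM, the siNT means were 941 for *TPM4*, 506 for *TPM3*, 396 for *TPM2* and 246 for *TPM1*. Within the myosin heavy chains *MYH10* went from between 3.95% and 4.60% to between 2.98% and 3.60%, and *MYH9* held nearly all of the rest. Of 20 shares tested, 10 reached the smallest possible p of 0.1, and adjusted over the 20 their p was 0.2, so that no share passed the threshold in a design of this size.

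**Figure D3:**
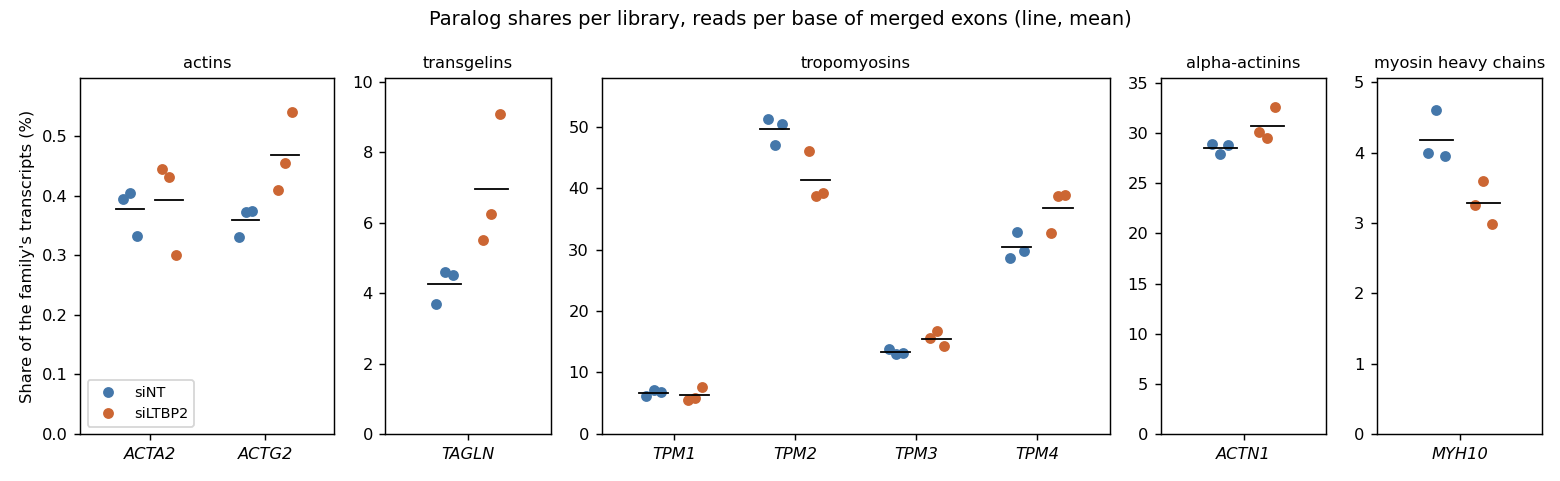
The share (percent, vertical axes from 0) of named paralogs among the transcripts of their family, counted as reads per base of merged exons, in each library, with siNT in blue, siLTBP2 in orange and a line at the mean. *TPM2* is lower and *TAGLN*, *ACTG2* and *ACTN1* are higher in each siLTBP2 library than in any siNT library, whereas *ACTA2* overlaps.

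Other genes of the actin system, taken from 3 lists, were called at different rates, where 19.3% of all genes tested were called. In actin assembly and turnover, 5 of 29 tested genes rose and none was called lower (17.2% called, median 0.12), with *LCP1* untested. The highest were the cyclase-associated protein *CAP2* at 0.50 (adjusted p = 0.00206) and the Arp2/3 subunit *ARPC2* at 0.40 (adjusted p = 0.0078). Among LIM and PDZ-LIM proteins of stress fibres and their partners, 4 of 19 rose and 6 fell (52.6% called, median -0.20), with *ACTN2* untested. *CSRP1* and *LIMA1* rose by 0.41 and 0.40, while the synaptopodins *SYNPO2* and *SYNPO* fell by 1.01 and 0.98, *SYNPO* from 251 ± 51.5 to 128 ± 16.0 CPM (SD, n = 3). These lists lose calls without single libraries: 2 of the assembly genes were called without siLTBP2 replicate 2, and 3 without siNT replicate 1 or siLTBP2 replicate 3. Of the LIM list, 6 were called without siNT replicate 2 or 3 or siLTBP2 replicate 1, and 5 without siLTBP2 replicate 2.

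Among SRF partners and other smooth muscle regulators, 3 of 12 rose and 3 fell (median 0.20). The ternary complex factors, which compete with the myocardin family for SRF, did not move together. *ELK3* rose by 0.88 (SE 0.10, adjusted p = 0.000228) and *ELK4* fell by 0.96 (SE 0.09, adjusted p = 0.000109). *ELK1*, at 0.11, was not called (adjusted p = 0.487). *PRRX1* rose by 0.54, and *SMAD3*, a transducer of TGF-beta signals, fell by 0.54 (adjusted p = 0.00314). With the replicate block, 13 of 29 assembly genes, 14 of 19 in the LIM list and 10 of 12 SRF partners were called. The block called 36.2% of all genes.

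**Figure D4:**
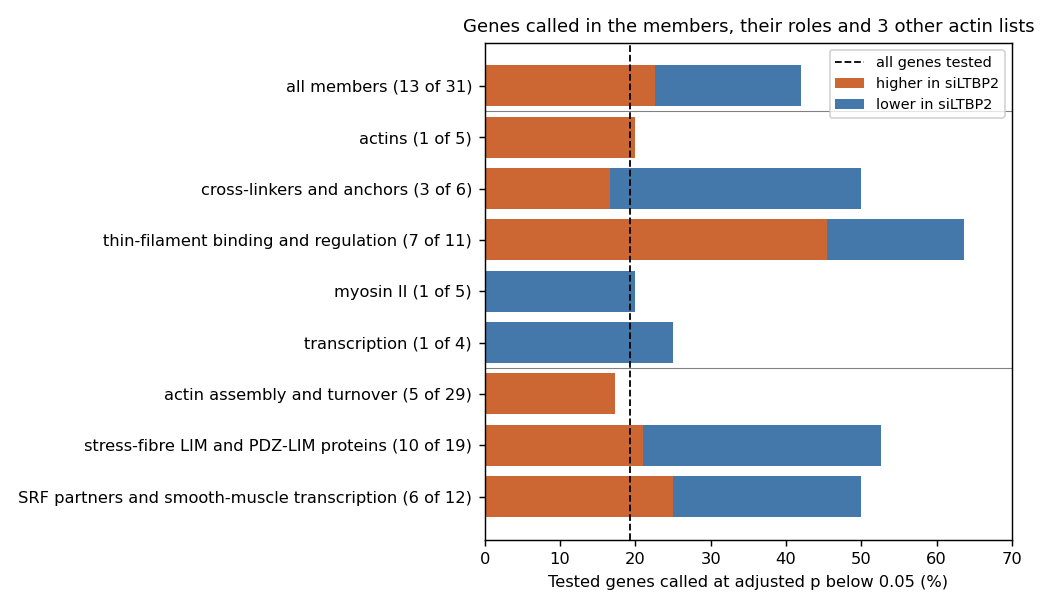
The share of tested genes called at an adjusted p below 0.05 (percent, horizontal axis) in all members, in the 5 role groups and in 3 further lists, with orange for genes higher and blue for genes lower in siLTBP2; the dashed line is the 19.3% of all genes tested. Thin-filament proteins reach 63.6%, and the actin assembly list at 17.2% stays below the line.

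The 7-base word GCACCCA in 3′ UTRs had been singled out in an earlier search of these libraries, so its carriers among the members are described without a test. Of the 31 tested members 4 carried it once (12.9%), against 11.8% of 12314 genes. The words are shown in capitals with 10 bases on each side, on the transcript's strand of GRCh38.
ACTN4, chr19:38730770-38730776: agagagagtgGCACCCAtgccaggcaa
LMOD1, chr1:201897183-201897189: ttggagaataGCACCCAtatctgtgtg
MRTFB, chr16:14265096-14265102: tggcttccatGCACCCAcctgacggta
MYL9, chr20:36551277-36551283: aggacctgcaGCACCCAcagaccagca

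Of these 4 genes, *LMOD1* was called, as lower. Among all genes tested, 405 of 1455 carriers were called lower and 100 higher. Of the 10859 genes without the word, 1015 were called lower and 1386 higher. The median log2 fold change of the 4 members was -0.02 and that of the other 27 members was 0.06. All genes showed -0.15 for carriers and 0.02 for the others. Of the members that fell, *MYOCD*, *MYLK*, *PALLD*, *PDLIM7* and *CNN3* carried no copy. The sequences of the siRNAs were not used here.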

How the data were processed

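RNA of 6 libraries (3 siNT, 3 siLTBP2) had been depleted of ribosomal RNA and sequenced from stranded libraries. The authors deposited raw read counts per gene, made with HTSeq-count after alignment by STAR against GRCh38. The submitters' processing notes name STAR 2.7.1a and HTSeq 0.11.2. The annotation release and how HTSeq treated strand were not given in the sources used here, so reads of a gene and of a gene overlapping it on the other strand may not be told apart. Gene positions came from GENCODE 44, which holds 60462 of the 60663 identifiers. No column of another sample was present.

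The table was analysed with edgeR 4.0.16 in R 4.3.3 (low counts removed by filterByExpr, TMM scaling, two-sided quasi-likelihood test by glmQLFit, Benjamini-Hochberg over the 16920 genes kept). Standard errors (SE) were obtained from the fold change and its F statistic. Alternatives were the study's own likelihood ratio test in edgeR, DESeq2 1.42.0, scaling by total counts, upper quartiles or RLE, no filter, 1 CPM in 3 libraries, an adjusted p below 0.01, the replicate number as a block, and each library left out. Shares of paralogs used counts per base of merged exons, with exact permutation tests. The quasi-likelihood, likelihood ratio and DESeq2 fits without a block were tested on simulated data that held no replicate effect. The block, the paralog shares and the sequence searches were not tested in this way.

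The 34 members, the role groups, the 3 further lists and the cell type markers were chosen with earlier results of these data known, and the 2 marker genes *ACTA2* and *TAGLN* came with the members. Values in every library were given for *ACTA2*, *TAGLN* and the called members. Shares in every library were given for *ACTA2*, *ACTG2*, *TAGLN*, *TPM2* and *TPM4*, and the other shares described were given as means or ranges. *MYH9* was added after its values were seen. Of each further list the 2 highest and 2 lowest called genes were named, and *ELK1* was added beside *ELK3* and *ELK4*. The values of 1 other list are not reported here. *RGS5*, which has 2 identifiers of the same symbol, was summed.

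The labels number the replicates 1 to 3 in both groups. On the scale of log2(CPM + 1), deviations from the group means correlated across genes by 0.50, 0.25 and 0.62 between libraries of the same number and by at most 0.05 between others, and the numbers were taken as pairs. On edgeR's log2 CPM the same-number correlations were 0.30, 0.08 and 0.43 and the others at most 0.10, so there the second pair was not closer than libraries of different numbers. The labels do not say what a number stands for, and the main fit and the permutation tests did not use the pairs. Libraries of 1 group differed by far more than counting noise (chi-square per degree of freedom from 24.6 to 48.1).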

Additional observations from a re-analysis of the deposited data

How the results depend on the processing

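The depth of 44663424 to 53576899 counts did not allow a test of *ACTC1*, *CNN1* and *MYH11*. With the replicate block, 36.2% of all genes were called. The block called 12 members higher, and called 2 of the actins, 4 of myosin II and 3 of the transcription group. It also called 13 of the assembly list and 10 of the SRF partners. Besides the changes named in the report the block ended no member's call. At an adjusted p below 0.01 there were 4 members higher and 3 lower, 1 cross-linker, 3 thin-filament genes, 2 assembly genes and 3 of the LIM list. DESeq2, total-count scaling and no filter each called 2 of myosin II, and total counts 2 of the transcription group. With upper-quartile factors or the filter of 1 CPM, 1 member passed the study's limits in place of 2. *CNN3* was not called with RLE (adjusted p = 0.0518) or upper-quartile factors (0.051), *TPM3* with RLE (0.0518) or no filter (0.0549), and *LMOD1* with upper-quartile factors (0.0623) or the 1 CPM filter (0.0573). The sign changed for *FLNA* (-0.0032), *FLNC* (-0.024) and *TPM1* (-0.031) with total counts, for *FLNC* (-0.0030) and *TPM1* (-0.0062) with no filter, and for *TPM1* with the block (-0.010); none of these was called. Without single libraries, members called higher ranged from 3 to 6, lower from 3 to 5, and those within the study's limits from 1 to 2. The range was 1 to 2 for actins, 1 to 3 for cross-linkers, 3 to 4 for thin-filament genes, 1 to 2 for myosin II, 1 to 2 for transcription, 2 to 6 for assembly and 5 to 7 for the LIM list. The sign then also changed for *FLNA* (-0.0065 to 0.093), *FLNC* (-0.085 to 0.17), *CNN2* (-0.11 to 0.014), *TPM1* (-0.17 to 0.11), *MYH10* (-0.13 to 0.10) and *SRF* (-0.053 to 0.17). Causes were not tested beyond the fewer libraries these fits hold. *LTBP2* was called lower in every fit. The mean share of *ACTA2* changed by 0.02 percentage points, and by -0.01 to 0.06 without single libraries.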
